A study of Mus musculus with 4 samples.

Results

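Cirbp and Rbm3 encode the pair of mammalian RNA-binding proteins best known for being induced by mild cooling. They are 2 of the 33696 genes in each of 2 single-cell expression tables of mouse peritoneal immune cells, Cirbp as ENSMUSG00000045193 and Rbm3 as ENSMUSG00000031167. Both were chosen by their measured values in these libraries, namely their levels under each diet in macrophages, T cells and B cells and their direction against the chaperone gene Hspa8. Those values are therefore given as a description, with no test.

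The mice were wild type (WT) and were kept from 4 weeks of age for 3 months on chow (the CD group) or on a high-fat diet (the HFD group). The labels conflict on this: a protocol entry has CD and HFD animals alike receiving high-fat feed, whereas the series' design text assigns chow to CD and is followed here. Peritoneal lavage cells sorted for CD45, the surface protein shared by leukocytes, gave 1 expression library and 1 B cell receptor library for each diet. The number of mice behind each library and any pooling are not given in the sources used here. With 1 library per diet no test across animals exists, and every interval below covers counting error only.

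The CD library held 13227 barcodes with 73549582 unique molecular identifiers (UMIs, each standing for 1 captured RNA molecule), and the HFD library held 6897 barcodes with 57630074. Barcodes with fewer than 300 genes or above 10% mitochondrial UMIs were dropped, which left 13069 and 6684 barcodes with medians of 4464 and 6452 UMIs. The libraries shared 30 barcode sequences, 0.227% of those in CD and 0.435% of those in HFD. Macrophages were barcodes with 5 or more UMIs of Adgre1, Prg4, Alox15 and Garnl3 together. T cells had 2 or more UMIs of Cd3e, Cd3d and Cd3g. Neither could carry a receptor contig, and barcodes that met both rules entered neither class. B cells were barcodes with a receptor contig, and were divided by the UMIs of Fcer2a and Cr2, which encode CD23 and CD21 and mark follicular-type B cells, into those with 0, 1, and 2 or more. Barcodes that fell in no class made up 19.0% of CD and 8.93% of HFD. The B cell gene Cd79a was found in 93.7% and 88.3% of them, at 3410 and 3053 CPM. In the main B classes Cd79a stood at 3334 to 3950 CPM, so most barcodes of no class carried B cell RNA without a contig. Cirbp in the barcodes of no class stood at 84.5 CPM in CD and 125 CPM in HFD, a log2 ratio of 0.57.

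The labels were checked against the markers that the class rules did not use. The 8 other macrophage markers summed to 44826 CPM (UMIs per 1000000 of the class sum) in CD macrophages and 40905 CPM in HFD macrophages, against 1418 to 3713 CPM in the T and both main B classes. The 8 other T cell markers summed to 1988 and 2450 CPM in T cells and to between 8.46 and 89.3 CPM in the other main classes. The 7 B cell markers summed to 7075 to 8248 CPM in both B classes. In T cells they stood at 2117 CPM in CD and 604 CPM in HFD, and in macrophages at 912 and 199.9 CPM, so RNA of B cells was more abundant among the other classes of the CD library.

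Cirbp and Rbm3 are small proteins with 1 RNA recognition motif and a glycine-rich tail. They bind messenger RNAs and influence their stability, translation and polyadenylation. Their transcripts and proteins increase when cells are kept a few degrees below core temperature and decrease with heat, the reverse of the heat shock chaperones driven by HSF1. CIRBP also reaches the outside of stressed cells, where it has been described as an inflammatory signal for macrophages through the TLR4 receptor complex and TREM1. Hspa8 encodes the abundant cytosolic chaperone Hsc70 and serves here as a comparator for direction only, not as a measure of temperature.

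A promoter sequence was found for Cirbp in the RefSeq promoter table (build GRCm38.p6), with 2 start sites listed. No Rbm3 or Hspa8 entry was matched. The stretch of 250 bases before the upstream start site, chr10:80167589-80167838 on the plus strand, is shown because it holds the letters TCCCCGCC, described as a mild cold response element of this gene and marked in capitals.

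Cirbp upstream start site: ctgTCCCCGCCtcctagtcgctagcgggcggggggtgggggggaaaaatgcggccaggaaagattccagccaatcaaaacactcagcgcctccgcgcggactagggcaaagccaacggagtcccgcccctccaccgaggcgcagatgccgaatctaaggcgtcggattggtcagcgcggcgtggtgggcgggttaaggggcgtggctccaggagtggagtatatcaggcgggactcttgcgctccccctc

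The match lay 247 bases before the start site. On either strand these letters occurred in 5.38% of the 32851 promoter windows of 300 bases in the table. The whole window of 300 bases was 65.7% G or C, against a median of 52.7% over all windows, and held 29 CG dinucleotides. It also held 3 GC boxes (GGGCGG, in 35.7% of all windows) and 2 CCAAT boxes (CCAAT, in 37.4%). The core letters of the heat shock element, GAANNTTC (7.86% of all windows), the E-box CACGTG (7.15%) and the TATA box TATAAA (13.6%) were not in either Cirbp window. The downstream window was 70% G or C, with 4 GC boxes and no TCCCCGCC. A match of letters is a description of the sequence and says nothing of binding in these cells.

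Cirbp was higher in the HFD library in T cells and in both main B classes, by 1.49-fold to 1.70-fold, and stood at nearly the same pooled level in macrophages. In B cells without Fcer2a and Cr2, 2012 Cirbp UMIs in CD and 2336 in HFD gave 73.8 and 125 CPM, a log2 ratio of HFD over CD of 0.76 (95% counting interval 0.67 to 0.85). In B cells with 2 or more UMIs of Fcer2a and Cr2, 623 and 750 UMIs gave 97.6 and 158 CPM, a log2 ratio of 0.70 (0.54 to 0.85). In T cells, 423 and 585 UMIs gave 89.7 and 133 CPM, or 0.57 as a log2 ratio (0.39 to 0.76). The HFD level was above the CD level, with Poisson intervals apart, in each of these 3 lymphocyte classes. In macrophages, 576 and 868 UMIs gave 40.8 and 42.5 CPM, or 0.06 as a log2 ratio (-0.10 to 0.21). Those intervals overlapped, and the macrophage value depended on depth, as given below.

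Rbm3 was higher in HFD in each of the 4 main classes, by a smaller fold of 1.16 to 1.26. Macrophages held 3607 Rbm3 UMIs in CD and 6054 in HFD, or 256 and 296 CPM, a log2 ratio of 0.21 (0.15 to 0.27). T cells held 1930 and 2241, or 409 and 511 CPM, a log2 ratio of 0.32 (0.23 to 0.41). B cells without Fcer2a and Cr2 held 11444 and 9452, or 420 and 506 CPM, a log2 ratio of 0.27 (0.23 to 0.31). In no class did the Poisson intervals of the 2 diets overlap. B cells with 2 or more UMIs of Fcer2a and Cr2 held 2648 and 2481, or 415 and 523 CPM, with a ratio of 0.33 (0.25 to 0.41). The gene Rbm3os lies antisense to Rbm3, and how the counting treated strand is not given in the sources used here.

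**Figure D1:**
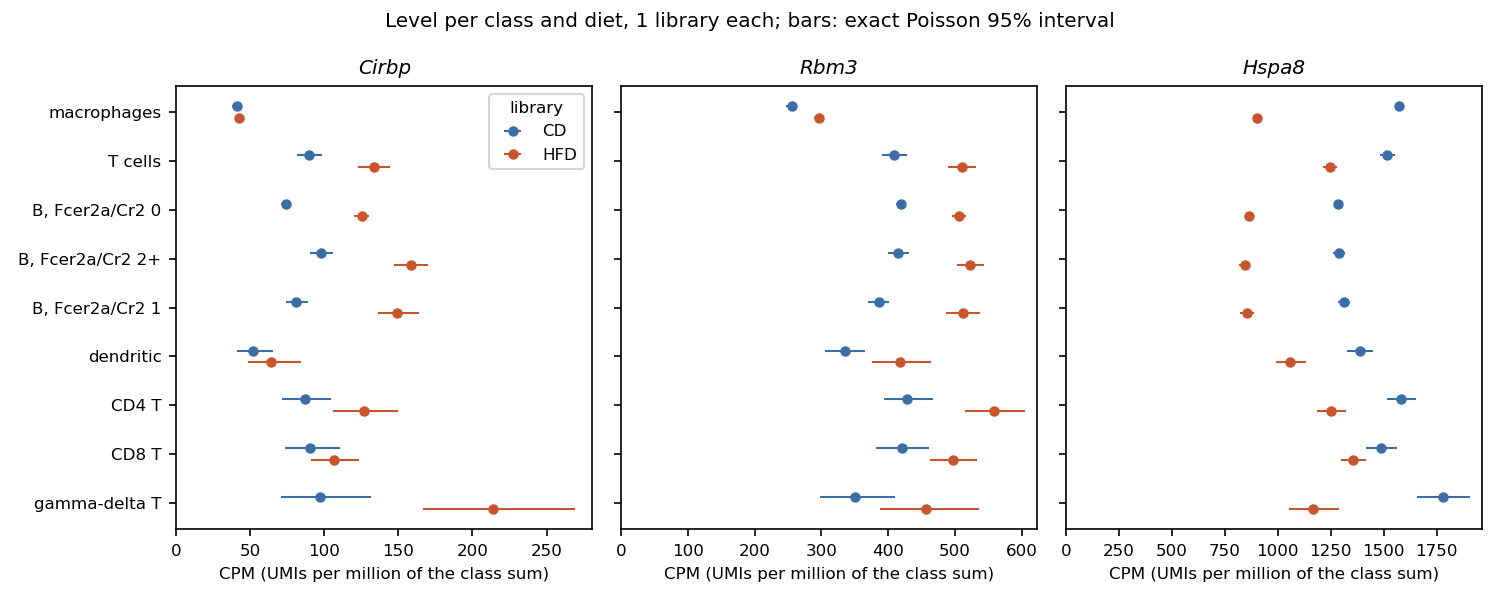
Levels of Cirbp, Rbm3 and Hspa8 in CPM (x axis, from 0) in 9 classes of barcodes (y axis), 1 library per diet, with exact Poisson 95% intervals as bars. Cirbp runs from 40.8 CPM in CD macrophages to 214 CPM in HFD gamma-delta T cells, and the HFD points of Hspa8 lie left of the CD points in each class.

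Hspa8 went the other way in each of the 4 classes. Its level was 1574 CPM in CD and 904 CPM in HFD in macrophages, for a ratio of -0.80 on the log2 scale (-0.83 to -0.77). In T cells it stood at 1516 and 1248 CPM, which is -0.28 on the same scale (-0.33 to -0.23). The T cell difference was the smallest of the 4. In B cells the log2 ratio was -0.57 (-0.60 to -0.54) without Fcer2a and Cr2 and -0.61 (-0.66 to -0.55) with them.

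A ratio within one library needs no scaling between libraries, so both genes were also set against Hspa8 UMIs of the same barcodes. Per 100 Hspa8 UMIs, macrophages held 2.59 Cirbp UMIs in CD and 4.70 in HFD, and T cells held 5.91 and 10.7. B cells without Fcer2a and Cr2 held 5.74 and 14.4, and those with them held 7.58 and 18.7. Relative to Hspa8, Cirbp was thus 1.81-fold higher in HFD both in macrophages and in T cells, and 2.51-fold and 2.47-fold higher in the B classes. For Rbm3 the same measure was 16.2 and 32.8 in macrophages, 2.02-fold higher in HFD. It was 27.0 and 40.9 in T cells (1.52-fold), 32.7 and 58.4 in B cells without Fcer2a and Cr2 (1.79-fold), and 32.2 and 61.9 in those with them (1.92-fold). In macrophages the ratio of Cirbp to Hspa8 differed by 0.86 log2 units, of which the Hspa8 level accounts for 0.80. The ratio of Rbm3 to Hspa8 differed by 1.01 log2 units in macrophages, 0.60 in T cells, and 0.84 and 0.94 in the B classes. Of these the Hspa8 level accounts for 0.80, 0.28, 0.57 and 0.61.

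The background of all genes with 50 or more UMIs over both sums of a class puts these sizes in proportion. A log2 ratio of 0.5 or more was found for 6.49% of the 9442 genes tested in T cells, 6.68% of 11817 in B cells without Fcer2a and Cr2, 6.78% of 9453 in B cells with them, and 7.67% of 11294 in macrophages. Cirbp passed that size in the 3 lymphocyte classes and Rbm3 in 0 of 4. Passing it in all 3 lymphocyte classes was uncommon: 29 of the 8672 genes tested in all 4 classes did so, or 0.334%, with Cirbp among them. Since the gene was selected on these contrasts, nothing is read from that share. Hspa8 was lower by 0.5 or more in macrophages, where 12.8% of genes were, and in the B classes without and with Fcer2a and Cr2, where 7.72% and 3.84% were. It did not reach that size in T cells, where 10.7% of genes did.

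By direction alone, 11.4% of the 8672 genes were above 0 in all 4 classes, as Cirbp and Rbm3 were. Below 0 in all 4 classes were 14.8%, Hspa8 being one. Cirbp lay at or above 95% of tested genes in T cells, 96.9% and 97.2% in the B classes, and 63.0% in macrophages. The corresponding values for Rbm3 were 87.1%, 84.5%, 85.1% and 79.4%. Rbm3 thus ranked below Cirbp in the lymphocyte classes and above it in macrophages. Both genes were chosen on these contrasts, so nothing is read from the ranks. The median log2 ratio of all tested genes was -0.05 in macrophages, -0.03 in T cells, -0.01 in B cells without Fcer2a and Cr2 and 0.05 in those with them.

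**Figure D2:**
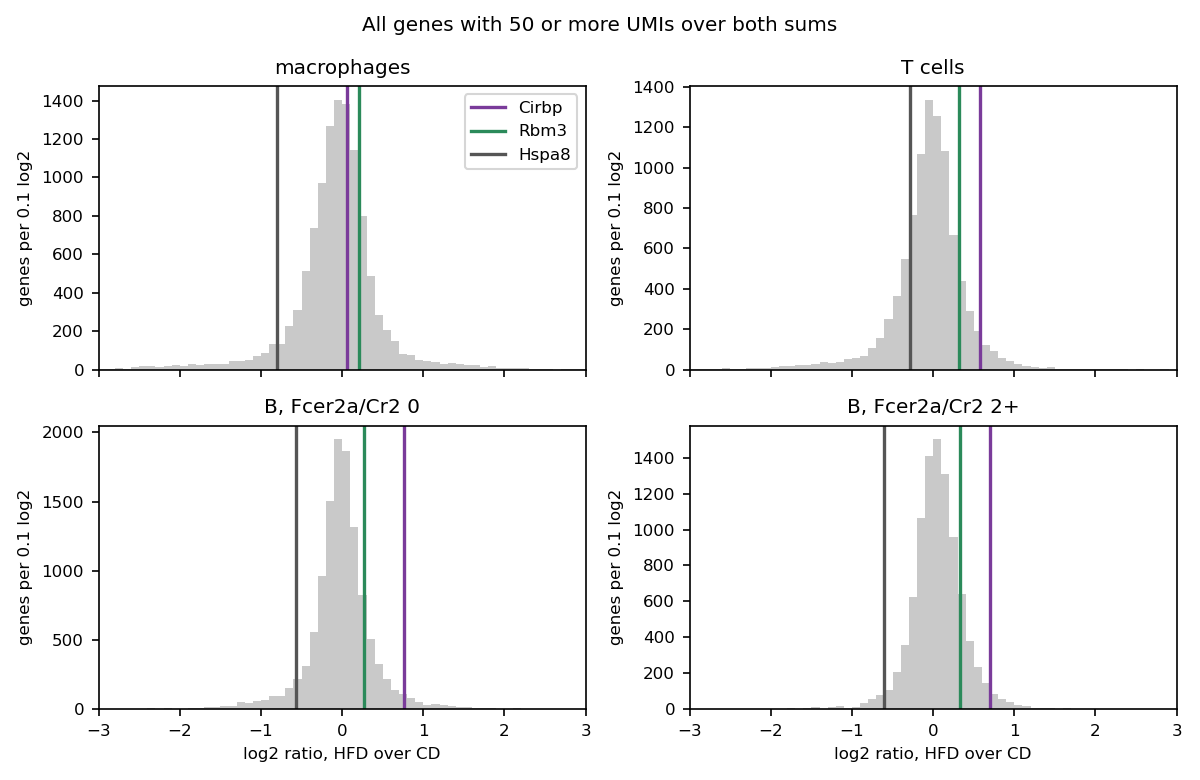
Number of genes (y axis) per 0.1 log2 unit of the HFD over CD ratio (x axis, shown from -3 to 3) in each of the 4 main classes, with Cirbp, Rbm3 and Hspa8 as vertical lines. Cirbp is in the right tail in T cells and both B classes (0.57, 0.76 and 0.70) and near the centre in macrophages (0.06).

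The number of UMIs per barcode differed between the libraries and moved with the Cirbp level. Macrophages had a median of 4873 UMIs in CD and 12309 in HFD, T cells 3721 and 5045, B cells without Fcer2a and Cr2 4552 and 6576, and those with them 4819 and 5337. When barcodes were divided into 4 depth ranges (starting at 1000, 3000, 6000 and 12000 UMIs, the last with no upper end), Cirbp CPM was lowest in the deepest range in each class of both libraries. Macrophages with 12000 UMIs or more held 27.1 CPM in CD, from 307 barcodes, and 38.6 CPM in HFD, from 750 barcodes. This gave a log2 ratio of 0.51 (0.25 to 0.79), unlike the pooled 0.06.

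Within the same depth range the macrophage ratio for Cirbp was above 0 in all 4 ranges, at 0.29, 0.60, 0.08 and 0.51, with the counting interval above 0 in 2 of them. Combined over the depth ranges by the Mantel-Haenszel method, which weighs ratios taken inside each range, the macrophage log2 ratio was 0.37. That value lay above the upper counting bound of the pooled one (0.21). A fixed range is a different part of each library, however. The deepest range held 307 of 2144 CD macrophages and 750 of 1477 HFD macrophages. With equal weight per barcode the macrophage ratio was 0.04, so its size depended on how depth was treated. For T cells the combined value was 0.63, and for the B classes without and with Fcer2a and Cr2 it was 0.94 and 0.73. Rbm3 moved little by the same step, to 0.18 in macrophages, 0.32 in T cells, and 0.25 and 0.32 in the B classes. The Rbm3 ratio was above 0 in all 4 depth ranges in macrophages, T cells and B cells without Fcer2a and Cr2. In B cells with them it was above 0 in 3 of 4, and -0.02 (-0.22 to 0.18) in the deepest range, from 49 CD and 47 HFD barcodes. Hspa8 was below 0 in each depth range of each class.

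**Figure D3:**
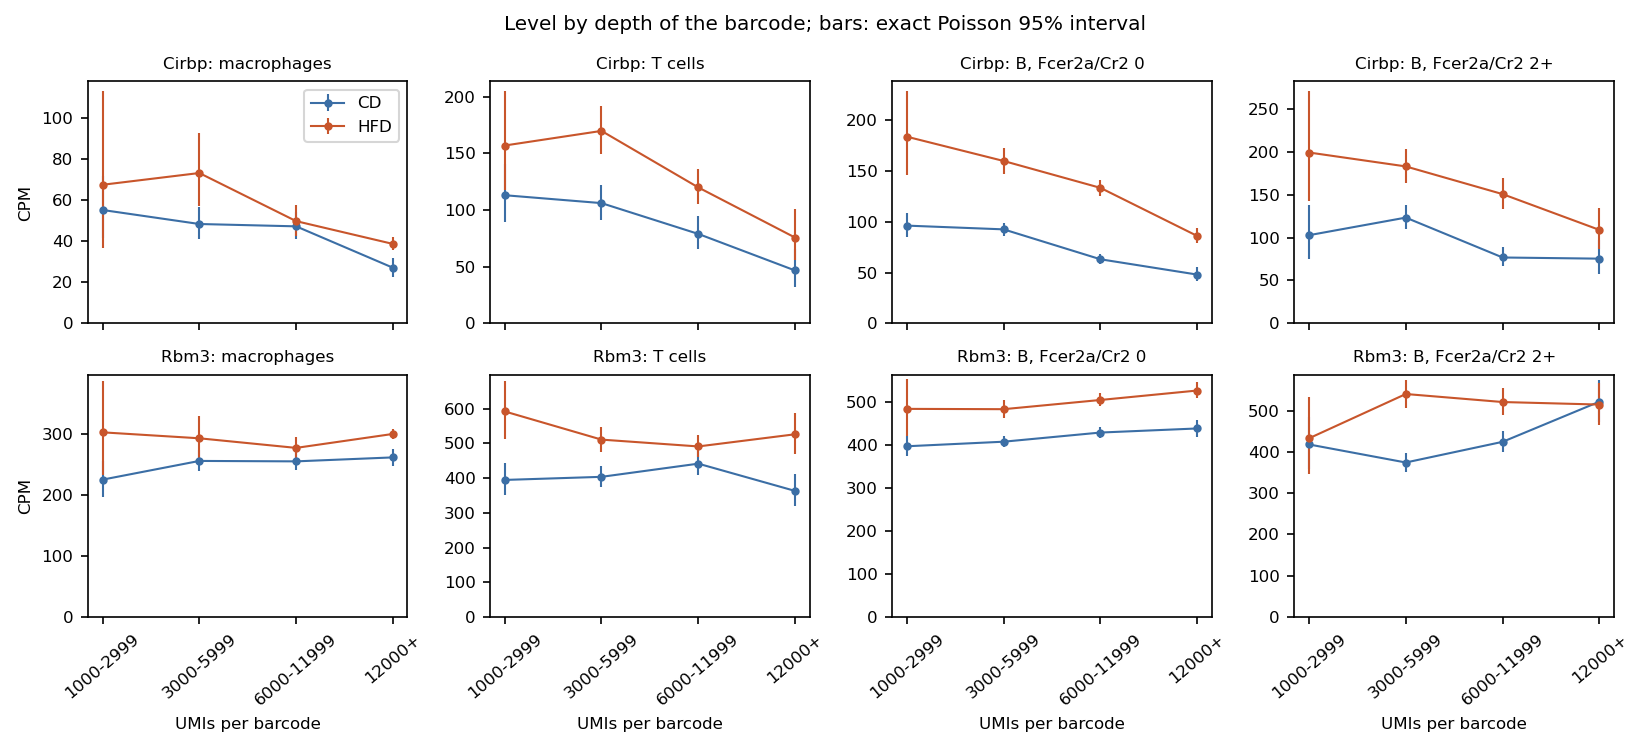
Level in CPM (y axis, from 0) of Cirbp (upper row) and Rbm3 (lower row) in 4 ranges of UMIs per barcode (x axis) in the 4 main classes, CD and HFD, with exact Poisson 95% intervals. Cirbp is lowest in the deepest barcodes (27.1 CPM in CD macrophages and 38.6 CPM in HFD macrophages), and the HFD line lies above the CD line in each upper panel.

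The share of barcodes with a UMI was compared after each barcode was thinned to 2000 UMIs, with shallower barcodes left out (250 CD and 64 HFD macrophages, 156 and 40 T cells, 102 and 53 B cells without Fcer2a and Cr2, 16 and 17 with them). As counted, Cirbp was found in 21.7% of CD and 40.8% of HFD macrophages. Thinned, the shares were 8.29% (exact binomial interval 7.09 to 9.62) and 9.48% (8.01 to 11.1), and they overlapped. In T cells the counted shares of 32.5% and 51.5% became 18.8% (16.2 to 21.6) and 26.9% (23.8 to 30.3). In B cells without Fcer2a and Cr2, 31.0% and 57.7% became 14.9% (13.9 to 16.0) and 23.8% (22.1 to 25.5). In B cells with them, 38.9% and 60.2% became 18.5% (16.3 to 20.9) and 28.4% (25.2 to 31.7). The thinned shares were apart in the lymphocyte classes. Thinned to 1000 UMIs, Cirbp was found in 5.03% (4.13 to 6.05) of CD and 4.89% (3.84 to 6.12) of HFD macrophages, so the order of the macrophage shares turned, within counting error. At that depth the T cell shares were 10.5% (8.65 to 12.6) and 14.3% (11.9 to 17.0), with intervals that overlapped, while those of the B classes stayed apart.

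Rbm3, the more abundant transcript, was found in most barcodes as counted, from 66.7% of CD macrophages to 90.1% of HFD B cells without Fcer2a and Cr2. Thinned to 2000 UMIs, the shares in CD and HFD were 38.1% and 43.0% in macrophages, 52.6% and 64.4% in T cells, 54.2% and 61.0% in B cells without Fcer2a and Cr2, and 51.8% and 64.0% in those with them. Their exact binomial intervals were apart in each class, by least in macrophages, where the upper CD bound and the lower HFD bound both round to 40.4%. No class here lacks either gene, so no share could be taken as the level of free RNA. Barcodes with 3 or more Cirbp UMIs after thinning were under 1% of each class, and in T cells those with exactly 1 UMI made up 16.6% of CD and 22.7% of HFD. Cirbp counts are too low at this depth to show how widely its difference was spread. Barcodes with 3 or more Rbm3 UMIs were 2.06% of CD and 2.90% of HFD macrophages and 6.38% and 10.1% of T cells. In B cells without Fcer2a and Cr2 they were 5.77% and 8.79%, and in those with them 5.50% and 10.8%.

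Within single barcodes the pair showed almost no relation at this depth. After thinning, Cirbp and Rbm3 were found together in 8.13% of CD B cells without Fcer2a and Cr2, against 8.09% from the product of their separate shares. In the HFD library the values were 15.1% and 14.5%. Over the 4 classes and both libraries, Pearson's r between the counts of any pair among Cirbp, Rbm3 and Hspa8 lay between -0.05 and 0.07. Counts this sparse cannot show a weak relation.

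Macrophages and dendritic cells stood lowest for both genes in both libraries. Among 9 classes, Cirbp was lowest in macrophages (40.8 CPM in CD, 42.5 CPM in HFD) and next lowest in dendritic cells (52.0 and 64.2 CPM). In CD the 2 intervals overlapped, and in HFD they did not. In CD the lymphocyte classes ran from 73.8 to 97.6 CPM, each interval overlapping that of its neighbour in the order. In HFD they ran from 106 CPM in CD8 T cells to 214 CPM in gamma-delta T cells, again with overlap between neighbours. Cirbp was 2.20-fold (1.93 to 2.49) higher in T cells than in macrophages in CD and 3.14-fold (2.82 to 3.49) in HFD. Rbm3 was likewise lowest in macrophages (256 and 296 CPM) and next lowest in dendritic cells (335 and 418 CPM), with intervals apart between the 2 in each library. CD4 T cells had the highest Rbm3 value (429 and 559 CPM), overlapping that of the next class.

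The classes with fewer barcodes held wider intervals. Gamma-delta T cells (110 CD and 62 HFD barcodes with a Trdc UMI) had 97.4 and 214 Cirbp CPM, a log2 ratio of 1.13 (0.57 to 1.71). CD4 T cells (222 and 182 barcodes) had a ratio of 0.54 (0.17 to 0.92). In CD8 T cells (217 and 245 barcodes), 90.3 and 106 CPM gave 0.24 (-0.13 to 0.61). The CD4 and CD8 intervals overlapped widely, the gamma-delta and CD8 intervals only at their ends, and the difference between subsets was not tested. Thinned to 2000 UMIs, Cirbp stood at 107 CPM in CD and 117 CPM in HFD CD4 T cells. The thinned values were 97.4 and 117 CPM in CD8 T cells, and 97.9 and 192 CPM in gamma-delta T cells. The thinned shares with a Cirbp UMI were 18.0% (13.0 to 23.9) and 20.6% (14.8 to 27.3) in CD4 T cells. The CD and HFD intervals of these shares overlapped in each of the subsets. NK cells rested on 32 and 43 barcodes and 6 and 32 Cirbp UMIs, with a ratio of 1.77 (0.49 to 3.32). In dendritic cells Cirbp had a ratio of 0.31 (-0.23 to 0.83) and Rbm3 one of 0.32 (0.12 to 0.52).

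Cirbp differed between the main B classes. It was 1.32-fold (1.21 to 1.45) higher in B cells with Fcer2a and Cr2 than in those without in CD and 1.26-fold (1.16 to 1.37) in HFD. The same comparison for Rbm3 gave 0.99-fold (0.95 to 1.03) and 1.03-fold (0.99 to 1.08). B cells with 1 UMI of Fcer2a and Cr2 held 81.1 and 149 Cirbp CPM, a log2 ratio of 0.88 (0.69 to 1.07). Barcodes with a heavy chain contig of IGHV11-2 or IGHV12-3, gene segments typical of B-1 cells that bind phosphatidylcholine, numbered 772 in CD and 721 in HFD. They held 67.5 and 110 Cirbp CPM, a log2 ratio of 0.71 (0.53 to 0.89), and 451 and 518 Rbm3 CPM, a ratio of 0.20 (0.13 to 0.28). The ratio between diets for Cirbp thus had overlapping intervals in B cells with either of these V genes and in the broader B classes. Barcodes with these V genes were 5.91% of kept barcodes in CD and 10.8% in HFD. The 6 B-1 cell markers summed to 433 and 863 CPM in B cells without Fcer2a and Cr2, and to 165 and 224 CPM in those with them. The part of class make-up in the Cirbp ratios was not tested.

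In pooled CPM, dividing cells went opposite ways for the 2 genes. Cycling barcodes had 5 or more UMIs of Mki67, Top2a, Birc5, Ccnb1, Ccnb2, Cdk1, Rrm2 and Pclaf together. They numbered 38 and 44 among B cells and 19 and 127 among macrophages in CD and HFD. Rbm3 was 2.11-fold (1.91 to 2.32) higher in cycling than in other B cells in CD and 1.61-fold (1.48 to 1.75) in HFD. In macrophages it was 1.59-fold (1.29 to 1.93) and 1.56-fold (1.46 to 1.66) higher. Cirbp was lower in cycling B cells, at 0.61-fold (0.38 to 0.91) and 0.69-fold (0.53 to 0.87), and in HFD cycling macrophages, at 0.69-fold (0.54 to 0.87). In CD cycling macrophages Cirbp rested on 5 UMIs, at 0.48-fold (0.15 to 1.12). Cycling barcodes were also deeper, with medians of 12113 and 15489 UMIs in B cells. Thinned to 2000 UMIs, Cirbp in CD stood at 92.1 CPM in cycling and 87.8 CPM in other B cells. In HFD these values were 125 and 156 CPM. In macrophages they were 55.6 and 47.7 CPM in CD, and 31.5 and 47.0 CPM in HFD. The lower Cirbp level of cycling barcodes was thus absent in CD after thinning and remained in HFD. The thinned CD values rest on 38 cycling B cells and 18 cycling macrophages. The part of depth in the Cirbp values was not tested.

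Cycling barcodes bear on the diet comparison, since cycling macrophages were 0.145% of kept barcodes in CD and 1.90% in HFD. Without them the Rbm3 log2 ratio in macrophages was 0.13 (0.07 to 0.19) in place of 0.21, and that of Cirbp was 0.10 (-0.06 to 0.26). Among cycling B cells Rbm3 did not differ beyond counting error between the diets, at 861 and 807 CPM, with a ratio of -0.09 (-0.28 to 0.09). Cirbp in the same barcodes stood at 47.9 and 92.7 CPM, a ratio of 0.95 (0.25 to 1.70).

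**Figure D4:**
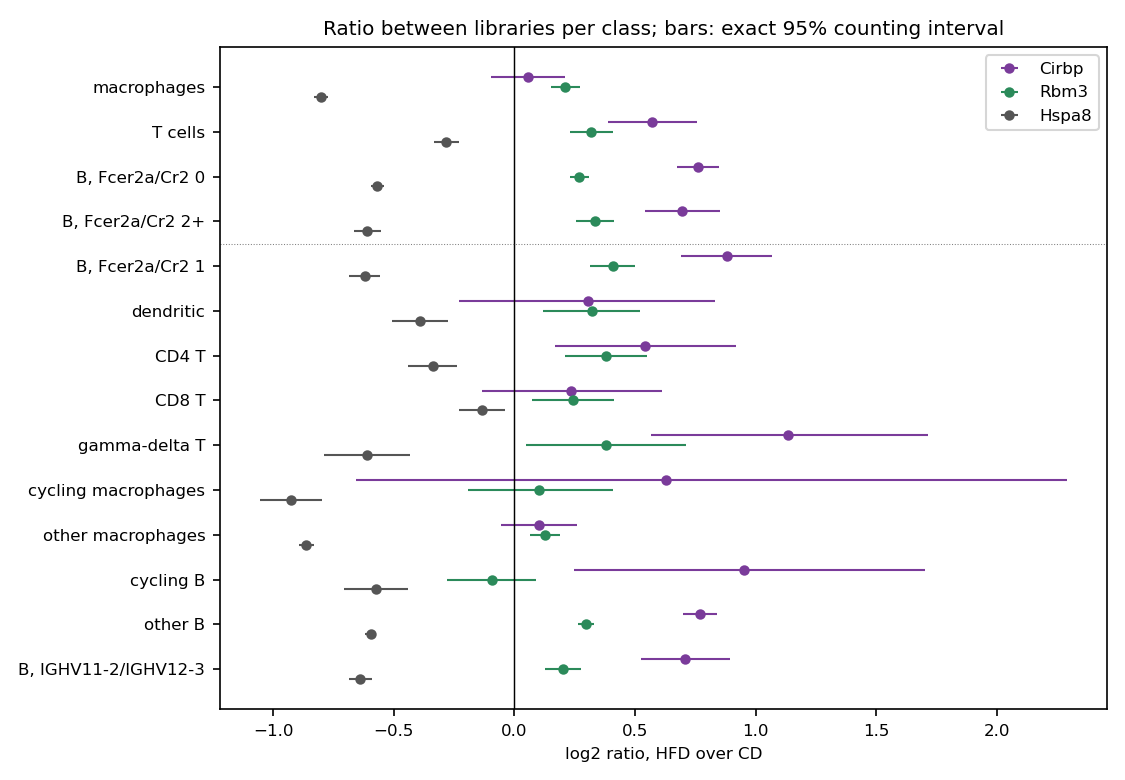
Log2 ratio of HFD over CD (x axis) for Cirbp, Rbm3 and Hspa8 in the 4 main classes (above the dotted line) and in 10 further classes or subsets, some sharing barcodes with those above (y axis), with exact 95% counting intervals. Hspa8 lies left of 0 in each of them, and Cirbp lies right of 0 with a wide interval where UMIs were few, as in cycling macrophages with 5 and 79 UMIs.

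RNA of other cells differed between the libraries and was measured beside these ratios. From Cd79a, Cd79b and Ms4a1, the share of B cell profile was estimated at 12.2% of CD and 2.68% of HFD macrophage UMIs, and at 28.1% and 7.66% of T cell UMIs. With that profile subtracted, Cirbp in macrophages was 35.5 and 39.9 CPM, a log2 ratio of 0.17, and in T cells the ratio was 0.50. The Rbm3 ratios became 0.31 in macrophages and 0.33 in T cells. The share of macrophage profile was 8.04% and 4.59% in B cells without Fcer2a and Cr2, 4.53% and 5.56% in those with them, and 1.01% and 1.64% in T cells. The direction in each class was the same after either subtraction.

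Other RNA-binding genes were described by family. Of 42 other genes with an Rbm symbol, 31 to 33 were tested per class, and 0 were higher by 0.5 or more in any of the 4 classes. Of all tested genes 6.49% to 7.67% were past that size, and with so few Rbm genes nothing is read from a count of 0. Their median log2 ratio was -0.17 in macrophages, -0.01 in T cells, -0.09 in B cells without Fcer2a and Cr2 and 0.01 in those with them. Rbm39, a splicing coactivator, stood at 272 and 239 CPM in macrophages (-0.19) and at 494 and 477 CPM in T cells (-0.05). Rbm38, which stabilises the p21 transcript, was lower in HFD macrophages (-0.59) and B cells without Fcer2a and Cr2 (-0.43) and higher in T cells (0.26). Rbm25 lay between -0.14 and 0.00 and Rbm42 between -0.11 and 0.16 over the 4 classes.

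The 20 heterogeneous nuclear ribonucleoprotein (Hnrnp) genes, whose proteins package nascent transcripts, had medians of 0.03, 0.05, -0.04 and 0.06 in the same class order. Hnrnpa2b1 lay between -0.06 and 0.04. Hnrnpa0, named after its values were seen, was the highest of the list in each class: 50.1 and 66.7 CPM in macrophages (0.41), 71.4 and 106 CPM in T cells (0.58), 64.4 and 92.2 CPM in B cells without Fcer2a and Cr2 (0.52), and 67.1 and 99.1 CPM in those with them (0.56). In the T and both B classes it passed 0.5, as Cirbp did, and in T cells the Cirbp ratio was 0.57.

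Of 30 splicing genes, which include the SR proteins and the CLK kinases whose splicing responds to body temperature, the medians were -0.12, -0.04, -0.05 and 0.04. Srsf5, an SR protein, was above 0 in each class (0.15, 0.34, 0.19 and 0.29). Son, a nuclear speckle scaffold, was -0.07 in macrophages and 0.10, 0.16 and 0.25 in the lymphocyte classes. Rsrp1, also named after its values were seen, was the lowest of the list in each class, at 283 and 94.4 CPM in macrophages (-1.58) and at -0.98, -1.19 and -1.17 in T cells and the B classes. Of the 30, 0 were higher by 0.5 or more, where 6.49% to 7.67% of all tested genes were. Nothing is read from that count.

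The heat shock list of 22 genes lay mainly below 0. Below 0 were 17 of 22 tested in macrophages, 14 of 19 in T cells, 20 of 22 in B cells without Fcer2a and Cr2 and 18 of 18 in those with them, with medians of -0.27, -0.28, -0.40 and -0.38. Of all tested genes, 56.1%, 53.9%, 52.4% and 42.5% were below 0 in the same order. Hspa8 is in this list, and the list holds genes already seen to be lower in these libraries, so it is no independent support for a direction. Lower by 0.5 or more were 7 of 22, 2 of 19, 8 of 22 and 5 of 18. Of all tested genes 12.8%, 10.7%, 7.72% and 3.84% were. The lowest member of each class was named after its values were seen. In macrophages and B cells without Fcer2a and Cr2 it was Hspa1b (-1.13 and -2.30). In T cells it was Dnajb1 (-0.85), and in B cells with Fcer2a and Cr2 it was Hsph1 (-0.90). The difference was not shared by the whole list. Hsp90ab1, the constitutive HSP90, stood at 1206 and 1263 CPM in macrophages (0.07) and at -0.12, -0.07 and -0.18 in the other classes. Hsp90aa1, the inducible form, was 0.12 in macrophages and -0.14, -0.27 and -0.42 in the others, and the mitochondrial co-chaperonin Hspe1 was 0.01, 0.00, -0.32 and -0.35.

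**Figure D5:**
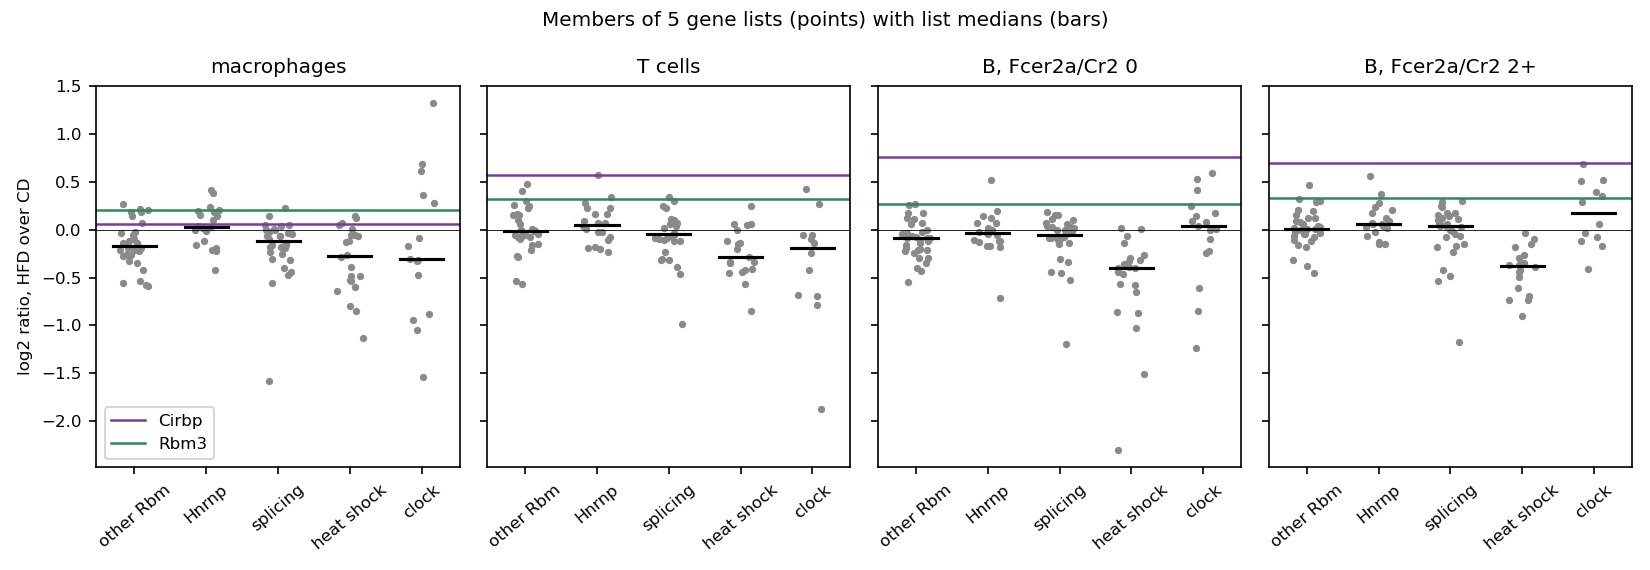
Log2 ratio of HFD over CD (y axis) of each tested member of 5 gene lists (points, with medians as bars) in the 4 main classes, with the Cirbp and Rbm3 ratios as horizontal lines. The Cirbp line lies above all other Rbm genes in T cells and both B classes, and the heat shock medians lie between -0.27 and -0.40.

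Genes tied to Cirbp and Rbm3 in earlier work were counted in the same way. Of 9 regulators and bound transcripts, 6 or 7 were tested per class, too few to set against the background of 6.49% to 7.67%, and 0 were higher by 0.5 or more. Txn1, a thioredoxin transcript described as bound by CIRBP, was above 0 in each class (0.19, 0.07, 0.22 and 0.15). Rtn3, a transcript described as bound by RBM3, was 0.00 in macrophages and 0.26, 0.16 and 0.15 in the lymphocyte classes. Hif1a, the hypoxia factor, was -0.53 in macrophages and 0.20, 0.20 and 0.08 in the others. Eif4g2 lay between -0.21 and -0.09.

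The receptor chains described for extracellular CIRBP are Tlr4, Ly96 (the TLR4 partner MD-2), Cd14 and Trem1. In macrophages, Cd14 stood at 482 and 422 CPM (-0.19), Ly96 at 70.3 and 45.0 CPM (-0.64) and Tlr4 at 24.2 and 20.1 CPM (-0.27). Trem1 stood apart from these, with 10 UMIs in CD and 119 in HFD, or 0.709 and 5.82 CPM, with a ratio of 3.04 (2.11 to 4.13). It was the least abundant of the 4 chains in both libraries. Of 7 granulocyte and mast cell markers, 4 had UMIs in CD macrophages and 7 in HFD macrophages, S100a9, Retnlg and Cpa3 being at 0 in CD. Their sum was 111 CPM in CD and 100 CPM in HFD. The part of such RNA in the Trem1 value was not tested.

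Cirbp is described as keeping the amplitude of clock transcripts such as Clock, so the clock genes were counted too. Of 22 symbols, 12 to 17 were tested per class, with medians of -0.31, -0.19, 0.04 and 0.17. Clock itself was -0.17 in macrophages, -0.42 in T cells and 0.04 and 0.06 in the B classes. Arntl, its partner, was 0.68 in macrophages and -0.79 in T cells. Bhlhe40 lay between -0.61 and -0.04, and the kinase gene Csnk1d was 0.28, -0.14, 0.01 and 0.51. The time of day at which each library was collected is not given in the sources used here.

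Immediate early genes, which respond to handling within minutes, had medians of -0.14, -0.30, -0.11 and -0.16. Klf2, a quiescence factor of lymphocytes and among the most abundant of the list, was 0.12 in macrophages and -0.14, -0.11 and -0.14 in the others. Zfp36 lay between -0.28 and -0.13. Junb was -0.16 in macrophages and 0.09 in T cells, and Jund was -0.35 in macrophages and 0.08 in B cells without Fcer2a and Cr2. The part of handling or of sample temperature in the Cirbp and Rbm3 values was not tested.

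Genes with the most similar pattern were taken from 6577 genes with 50 or more UMIs in each of the 8 sums of class and diet. By Pearson's r of log2 CPM over these 8 sums, which share 2 libraries, the nearest to Cirbp were Pura, Ocel1, Hps1, Mcat and Gm36220 (0.98 to 0.99). Rbm3 ranked 12 in that order, with r = 0.97. The nearest to Rbm3 were mt-Atp8, Rpl39, Set, Lppos and Smim8 (0.98 to 0.99). By distance over the 4 log2 ratios, Nsmce4a was nearest to Cirbp, with 0.11 in macrophages, 0.65 in T cells, and 0.63 and 0.47 in the B classes, followed by Impact, Haghl, 4933406I18Rik and Cdyl2. Sh3glb2, Dcp2, Ankrd52, Srsf5 and Fbxl20 were nearest to Rbm3, with Sh3glb2 at 0.19, 0.31, 0.33 and 0.29. Cirbp and Rbm3 were therefore not among each other's 5 nearest genes by either measure, the 2 patterns differing mainly in the larger lymphocyte ratios of Cirbp.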

How the data were processed

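The expression files hold UMI counts per gene and barcode as deposited by the authors, with no normalization; per the file headers they came from Cell Ranger 8.0.1, while build mm39, Seurat 4.3.0 and an older Cell Ranger, 6.0.1, are listed per the submitters' processing notes. Whether intronic reads were counted, and the strand setting, are not given in the sources used here. The labels name a 3' kit, although receptor contigs were deposited, so the end of the transcript that was read is unsure. The deposited receptor contig tables were used only for which barcodes carry a contig and its V gene. The members, class rules and gene lists were chosen with earlier results of these data known.

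Counts were summed per library and class and divided by the class total (CPM). Intervals are exact Poisson for CPM, exact conditional (Clopper-Pearson) for ratios of counts and exact binomial for shares, at 95%; they cover counting error only. No doublet caller was run; in place of it, barcodes with markers of 2 lineages were left out as an alternative. Other alternatives were barcode filters, thinning, equal weights, edgeR 4.0.16 TMM factors in R 4.3.3, stricter class rules and leaving out cycling barcodes. The stricter class rules, called doubled thresholds here, doubled the marker UMIs. They also kept only B barcodes with exactly 1 heavy chain contig and 2 contigs in all. Added after seeing the data were depth ranges combined, subtracting the B or macrophage profile, leaving out barcodes of 2 lineages, and that step together with doubled thresholds. One B cell marker is not reported here, and the B marker sum, the B profile and the rule for 2 lineages, planned with it, were recomputed without it. Genes of each list were named by highest mean CPM over the 8 sums, up to 4 per list. Ratios and intervals were tested on simulated data. Python 3.11.15, numpy 2.4.6, scipy 1.17.1 and pandas 2.3.3 were used.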

Additional observations from a re-analysis of the deposited data

Results flagged for a closer look

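Several genes of the lists had counting intervals above 0 in one class and below 0 in another. With 1 library per diet these differences between classes were not tested across animals.

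Arntl was 0.68 in macrophages and -0.79 in T cells, a difference of 1.47 log2 units. Ly96 was 0.25 in B cells without Fcer2a and Cr2 and -1.10 in T cells, a difference of 1.35. Rbm38 was 0.26 in T cells and -0.59 in macrophages, a difference of 0.85. Hif1a was 0.20 in B cells without Fcer2a and Cr2 and -0.53 in macrophages, a difference of 0.72. Hsp90aa1 differed by 0.54 and Hsp90ab1 by 0.24 between macrophages and B cells with Fcer2a and Cr2, the macrophages being above 0. Jund differed by 0.43 between B cells without Fcer2a and Cr2 (0.08) and macrophages (-0.35), and Srrm2 by 0.29 between B cells with Fcer2a and Cr2 (0.16) and macrophages (-0.13). Between T cells and macrophages, Ddx5 differed by 0.26 (0.10 and -0.16), Junb by 0.25 (0.09 and -0.16) and Klf2 by 0.26 (-0.14 and 0.12).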

How the results depend on the processing

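No alternative reversed the direction of the log2 ratios of Cirbp, Rbm3 or Hspa8 in any of the 4 main classes. Of the ratios of thinned shares, that of Cirbp in macrophages turned from 1.14 at 2000 UMIs to 0.972 at 1000 UMIs, with overlapping intervals at both depths. Over 12 or 13 alternatives per class, Cirbp ranged from 0.04 to 0.37 in macrophages, 0.50 to 0.63 in T cells, 0.74 to 0.94 in B cells without Fcer2a and Cr2 and 0.56 to 0.73 in those with them. Combining depth ranges gave the values 0.37 in macrophages and 0.94 in B cells without Fcer2a and Cr2 for Cirbp, and -0.86 and -0.60 in the same classes for Hspa8. Rbm3 in macrophages was 0.13 without cycling barcodes, 0.28 with TMM factors and 0.31 with the B profile subtracted. Rbm3 was 0.46 in B cells with Fcer2a and Cr2 after thinning. With doubled thresholds and barcodes of 2 lineages left out, Rbm3 was 0.22 in B cells without Fcer2a and Cr2. In those with them it was 0.45. For the class without them, the doubling step was the contig rule alone.

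Hspa8 in macrophages was -0.86 without cycling barcodes, -0.87 with equal weights, -0.74 with TMM factors and -0.83 with the B profile subtracted, without barcodes of 2 lineages, and with doubled thresholds as well. In T cells it was -0.34 without barcodes of 2 lineages and -0.36 with doubled thresholds as well. In B cells with Fcer2a and Cr2 it was -0.79 with doubled thresholds, -0.80 with both steps and -0.67 with TMM factors. The cause of these shifts was not tested.

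The share of genes past the fold depended on the gene minimum and the fold by construction. In the order macrophages, T cells, B cells without and with Fcer2a and Cr2, a minimum of 1 UMI in each sum gave 12.0%, 14.5%, 17.7% and 14.6% higher and 23.6%, 17.4%, 12.3% and 10.9% lower. A fold of 1 log2 unit gave 2.70%, 1.19%, 1.69% and 0.878% higher and 4.94%, 3.95%, 2.42% and 0.836% lower. A minimum of 20 UMIs gave 6.05% lower in B cells with Fcer2a and Cr2. The clock list median became -0.09 in T cells with 1 UMI in each sum, and 0.06 (20 UMIs) or 0.07 (1 UMI) in B cells with Fcer2a and Cr2. The CIRBP receptor list median became -0.04 in T cells under both minimums and 0.03, against -0.19, in B cells without Fcer2a and Cr2 with 1 UMI in each sum.

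No paired analysis was possible because each diet has 1 library. With a single library per diet, diet, animal, time of collection and handling cannot be told apart. Cirbp in macrophages is also limited by depth, with medians of 4873 UMIs per barcode in CD and 12309 in HFD.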
